A study of Rattus norvegicus with 12 samples.

Results

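The genes described here are 4 genes of glucose uptake and glycolysis: Slc2a1 (ENSRNOG00000007284), Hk2 (ENSRNOG00000006116), Gapdh (ENSRNOG00000018630) and Ldha (ENSRNOG00000013009). They were chosen by a list of these 4 identifiers, out of 19775 genes in the deposited table. The symbols were given with the list. Glucose enters the cell through transporters, is trapped by phosphorylation and is then broken down by glycolysis to pyruvate, which can be reduced to lactate. Slc2a1 encodes the glucose transporter GLUT1, which is abundant in fetal and newborn heart muscle, and Hk2 encodes hexokinase 2, which phosphorylates the glucose that has entered. Gapdh encodes a glycolytic dehydrogenase and is a common reference gene in expression assays, and Ldha encodes the lactate dehydrogenase subunit that favors making lactate from pyruvate.

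The study measured RNA by sequencing in iAMs, a line of neonatal rat atrial myocytes made conditionally immortal by a lentivirus that carries the SV40 large T antigen under control of doxycycline. The line was selected with puromycin. The question was how gene expression in these cells responds to EF-1, a small-molecule agonist of the receptor ERBB4, and to neuregulin-1 (NRG1), a natural ERBB ligand. In all 12 libraries the cells had differentiated for 9 days without doxycycline and were then treated for 16 h, with DMSO present in every group. The vehicle group received PBS and is labelled as the control (libraries 1 to 4). The NRG1 group received 0.1 µM NRG1 (libraries 5 to 8), and the EF-1 group received 32 µM EF-1 (libraries 9 to 12). The study calls the 4 libraries of a group biological replicates. All come from 1 cell line, and no label pairs a library of one group with a library of another. How the cultures of a group were kept apart is not described further, so the p-values measure the spread between these libraries.

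The total estimated count was 12216228 to 27220266 in the vehicle libraries (median 18700892) and 21384901 to 27467198 in the NRG1 libraries (median 25748686). It was 13763279 to 17149059 in the EF-1 libraries (median 15378652), so the NRG1 group was the most deeply sequenced. Levels below are given as CPM, a gene's estimated count per 1000000 counts of its library. The 4 genes together took 0.288 to 0.354% of the counts in the vehicle libraries, 0.362 to 0.408% in the NRG1 libraries and 0.237 to 0.356% in the EF-1 libraries. All 4 genes passed the filter on low counts, which kept 10997 genes for the tests.

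Some libraries stood apart within their own group. The effective length is the transcript length that Salmon, the authors' quantification tool, uses after its correction for fragment length and GC content. Averaged over transcripts as a geometric mean, it was 94.0% of the annotated length in EF-1 library 12, against 88.6, 85.0 and 88.0% in EF-1 libraries 9, 10 and 11. In the vehicle group it was 94.2% in library 2 and 92.9% in library 4, against 89.3% in library 1 and 90.9% in library 3. Library 12 was thus high and library 10 low in the EF-1 group, and libraries 2 and 4 were high in the vehicle group. The 4 NRG1 libraries lay between 89.0 and 91.1%. A surrogate variable, a pattern estimated from the counts, also split each group. It was -0.406 and -0.295 in vehicle libraries 2 and 4 and -0.268 and -0.207 in NRG1 libraries 6 and 8. In EF-1 it was -0.334 in library 12 and 0.507 and 0.431 in libraries 10 and 11. All other libraries had positive values. Slc2a1 was lowest in vehicle libraries 2 and 4 and NRG1 libraries 6 and 8, but not in EF-1 library 12. What the variable stands for was not tested. Of the 4 genes, Hk2 was the one whose own effective length varied most. Fold changes against vehicle, and those of EF-1 against NRG1, are given below with and without libraries of their own groups that stood apart by effective length.

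**Figure D1:**
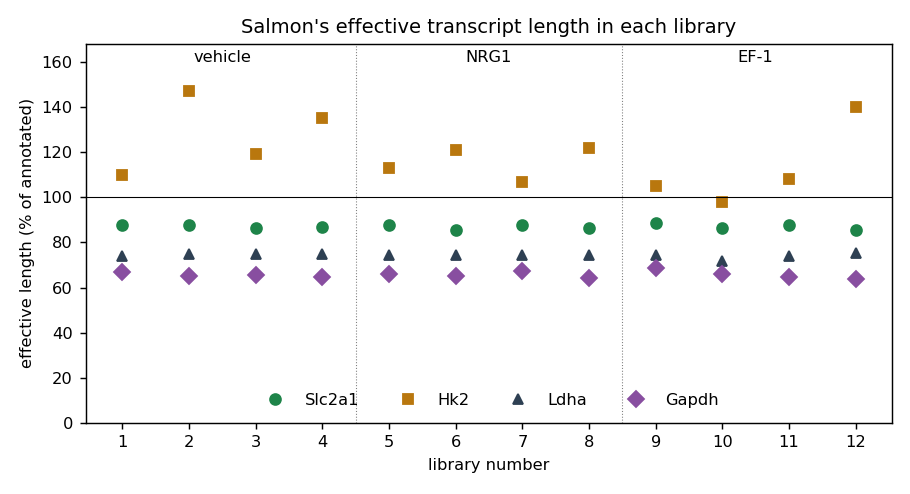
Effective transcript length of each gene, as a percent of its annotated length (vertical axis), in the 12 libraries (horizontal axis), 1 point per gene and library, with dotted lines between the groups. Hk2 ranges from 98.1% in EF-1 library 10 to 147% in vehicle library 2, while Slc2a1 stays between 85.4 and 88.8%.

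NRG1 was compared with vehicle to see how the cells respond to the natural ligand. Slc2a1 rose 2.47-fold and Hk2 rose 1.27-fold. Gapdh and Ldha had estimates above 1-fold that did not pass the test. Slc2a1 and Hk2 are thus 2 of 4 genes called higher at an adjusted p under 0.05, where 15.9% of all 10997 tested genes were called higher. The count was 1 of 4, Slc2a1 alone, when vehicle library 1, 3 or 4 or NRG1 library 8 was left out, and on reads before length scaling. Slc2a1 was the 1 gene of the 4 that was also past a log2 fold change of 0.58, which 10.1% of tested genes were. The median log2 fold change was 0.31 over the 4 genes and -0.01 over all tested genes. RNA came from whole cultures, in which fewer cells of a type and less RNA per cell cannot be told apart.

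Slc2a1, the glucose transporter, was at 10.3, 7.49, 14.5 and 8.19 CPM in vehicle libraries 1 to 4. In NRG1 libraries 5 to 8 it was at 29.3, 25.6, 30.2 and 15.5 CPM. In EF-1 libraries 9 to 12 it was at 12.3, 13.7, 12.4 and 13.4 CPM. Every NRG1 library was above every vehicle and EF-1 library, but NRG1 library 8 was close to vehicle library 3, and all 4 EF-1 libraries fell inside the vehicle range. The mean was 10.1 ± 3.15 CPM with vehicle, 25.2 ± 6.74 with NRG1 and 12.9 ± 0.718 with EF-1 (SD, n = 4). Slc2a1 was also the least deeply counted of the 4 genes, with 158 to 204 estimated counts per vehicle library and 332 to 819 per NRG1 library. Counting error alone would give a coefficient of variation of 7.42% in the vehicle group, against 31.1% observed. In the EF-1 group the corresponding values were 7.08% and 5.54%. These counting errors do not cover copying of molecules by PCR. Slc2a1 had a log2 fold change of 1.30 with NRG1 (SE 0.22, 95% interval 0.82 to 1.78) at an adjusted p of 0.000626 by edgeR's quasi-likelihood test. A larger rise was estimated for 3.15% of tested genes. Leaving out each library in turn gave 1.19 (without vehicle library 2) to 1.51 (without vehicle library 3), with a call each time, and 1.22 without vehicle library 4.

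**Figure D2:**
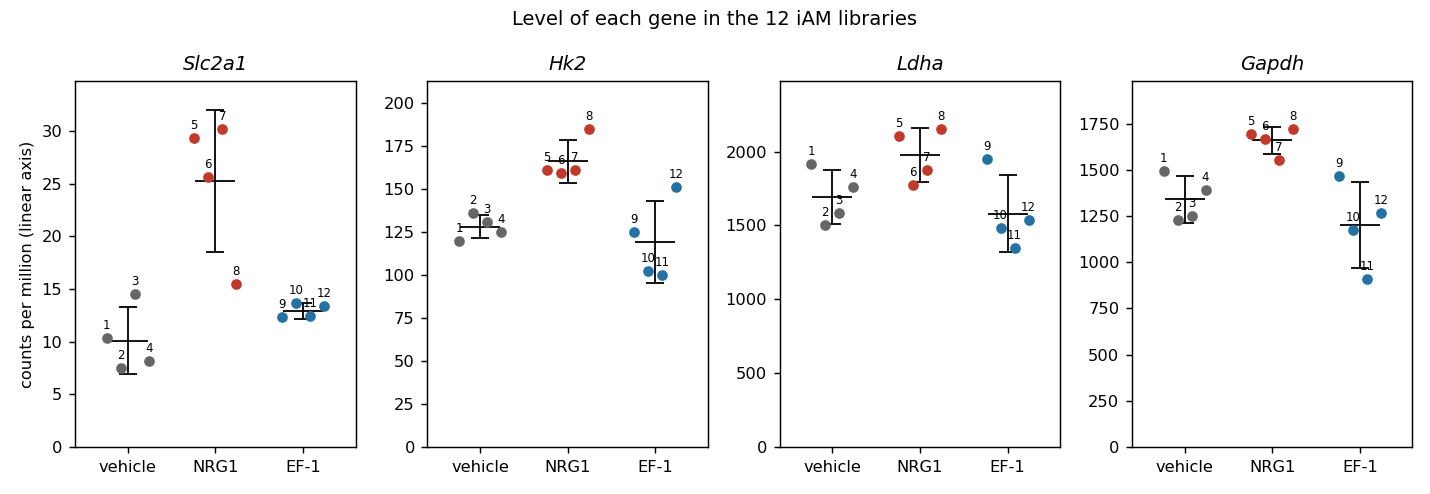
Level of each gene in CPM (vertical axis, linear, from 0) in the vehicle, NRG1 and EF-1 groups. Points are libraries marked with their number, and bars give the mean and SD of 4 libraries. For Slc2a1 the NRG1 libraries sit between 15.5 and 30.2 CPM, above the vehicle libraries at 7.49 to 14.5 CPM.

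Hk2, the hexokinase, was at 120, 136, 131 and 125 CPM in vehicle libraries 1 to 4. In NRG1 libraries 5 to 8 it was at 161, 159, 161 and 185 CPM. In EF-1 libraries 9 to 12 it was at 125, 102, 100 and 151 CPM. All NRG1 libraries were above all others, and library 12 was the highest of the EF-1 group, close to the NRG1 libraries. The mean was 128 ± 6.68 CPM with vehicle, 166 ± 12.6 with NRG1 and 119 ± 23.8 with EF-1 (SD, n = 4). Hk2 had a log2 fold change of 0.35 with NRG1 (SE 0.11, 95% interval 0.10 to 0.59) at an edgeR adjusted p of 0.0354. This call was lost when any 1 of 4 libraries was left out, with little difference in the estimate. The log2 fold change was 0.33 without vehicle library 1 (edgeR adjusted p 0.0767), 0.35 without vehicle library 3 (0.0713), 0.33 without vehicle library 4 (0.0822) and 0.31 without NRG1 library 8 (0.0876). Without vehicle library 2 it was kept (log2 fold change 0.39, edgeR adjusted p 0.0367). Over all alternatives the adjusted p of Hk2 ranged from 0.000274 to 0.382.

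The Hk2 values also depend on how transcript length is handled. The authors' gene counts are scaled by effective length, and for Hk2 this length was 110, 147, 119 and 135% of the annotated length in vehicle libraries 1 to 4. It was 107 to 122% in the NRG1 libraries, and 105, 98.1, 108 and 140% in EF-1 libraries 9 to 12. Libraries 2, 4 and 12, with the longest effective lengths for Hk2, and library 10, with the shortest, are the ones that stood apart over all transcripts. Before length scaling, Hk2 was at 107, 157, 125 and 134 reads per 1000000 reads in vehicle libraries 1 to 4. It was then at 148, 153, 140 and 180 in NRG1 libraries 5 to 8, and at 107, 81.9, 89.2 and 166 in EF-1 libraries 9 to 12. On that scale the NRG1 and vehicle groups overlapped. The log2 fold change with NRG1 was then 0.24 with an edgeR adjusted p of 0.382, and with the lengths entered as an offset it was 0.36 with an adjusted p of 0.0378. The part of effective length in the Hk2 result was not tested further.

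Gapdh, the glycolytic dehydrogenase, was at 1495, 1227, 1250 and 1393 CPM in vehicle libraries 1 to 4. In NRG1 libraries 5 to 8 it was at 1697, 1665, 1555 and 1723 CPM. In EF-1 libraries 9 to 12 it was at 1468, 1174, 908 and 1267 CPM. The NRG1 libraries were above all others, and the EF-1 libraries spread the widest, with library 11 lowest. The mean was 1341 ± 126 CPM with vehicle, 1660 ± 73.9 with NRG1 and 1204 ± 233 with EF-1 (SD, n = 4). Gapdh had a log2 fold change of 0.28 with NRG1 (SE 0.12, 95% interval 0.01 to 0.54), at an edgeR adjusted p of 0.105. DESeq2 called Gapdh at an adjusted p of 0.0397, as did edgeR on the NRG1 and vehicle libraries alone (0.0441) and with 1 surrogate variable (0.0313). Over all alternatives its adjusted p ranged from 0.0313 to 0.230. Without vehicle library 2 the log2 fold change was 0.25 (edgeR adjusted p 0.206), and without vehicle library 4 it was 0.30 (0.147). Gapdh has processed pseudogenes in rodents, and reads shared with such copies may have been split by the authors' counting, so its level is uncertain to that extent.

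Ldha, the lactate dehydrogenase subunit, was at 1918, 1505, 1586 and 1760 CPM in vehicle libraries 1 to 4. In NRG1 libraries 5 to 8 it was at 2105, 1775, 1873 and 2155 CPM. In EF-1 libraries 9 to 12 it was at 1952, 1482, 1345 and 1540 CPM. The groups overlapped, since vehicle library 1 and EF-1 library 9 lay inside the NRG1 range. The mean was 1692 ± 184 CPM with vehicle, 1977 ± 182 with NRG1 and 1580 ± 261 with EF-1 (SD, n = 4). The log2 fold change with NRG1 was 0.19 (SE 0.12, 95% interval -0.07 to 0.46) at an edgeR adjusted p of 0.251. It was 0.15 without vehicle library 2 (edgeR adjusted p 0.436) and 0.21 without vehicle library 4 (0.295).

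By CPM, 3 of 4 genes (Slc2a1, Hk2 and Gapdh) had NRG1 libraries wholly above the vehicle libraries, against 20.6% of all tested genes. NRG1 library 8 held the lowest Slc2a1 value of its group and the highest Hk2, Gapdh and Ldha values. For a single gene, an exact two-sided permutation test of log2 CPM with 4 libraries against 4 has 70 splits and cannot give a p below 0.0286. Slc2a1, Hk2 and Gapdh each reached that smallest value for NRG1 against vehicle, and the p adjusted over the 12 tests was 0.0572 for each.

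EF-1 was compared with vehicle to see how the cells respond to the agonist. None of the 4 genes passed the test, and Slc2a1 was the 1 gene with an estimate above 1-fold, at 1.31-fold. By edgeR, 0 of 4 were called at an adjusted p under 0.05, where 0.0273% of all tested genes (3) were called. At an unadjusted p under 0.05 edgeR likewise called 0 of the 4, against 20.5% of all tested genes. That count moved with single libraries, since the unadjusted edgeR p was 0.0156 for Slc2a1 without vehicle library 3, 0.0467 for Slc2a1 without NRG1 library 8 and 0.0475 for Hk2 without EF-1 library 12. After adjustment DESeq2 called 0 of the 4 and 210 genes in all, and limma-voom called 0 of the 4 and 0 genes in all. The study used DESeq2 with the sequencing run as a covariate, which the labels do not give. It reported many more genes changed by EF-1 in these cells than were called here with all libraries kept. By CPM ranges 0 of 4 were wholly above or below vehicle, against 4.42% of tested genes. The median log2 fold change was -0.09 over the 4 genes and -0.01 over all tested genes.

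With EF-1, Slc2a1 had a log2 fold change of 0.39 (SE 0.23, 95% interval -0.10 to 0.88) at an edgeR adjusted p of 0.285. It was 0.60 without vehicle library 3, the highest of its group, 0.31 without vehicle library 4 and 0.28 without vehicle library 2, the lowest, and no left-out library gave a call. With 1 surrogate variable it was 0.24 (edgeR adjusted p 0.729). For Hk2 it was -0.09 (SE 0.11, 95% interval -0.34 to 0.16) at an edgeR adjusted p of 0.599, and it turned to 0.03 with 1 surrogate variable (edgeR adjusted p 0.910). On reads before length scaling the Hk2 value was -0.21 (edgeR adjusted p 0.523). For Gapdh it was -0.15 (SE 0.12, 95% interval -0.41 to 0.12) and for Ldha -0.09 (SE 0.12, 95% interval -0.35 to 0.17), with edgeR adjusted p of 0.434 and 0.641. With 1 library left out, Gapdh ranged from -0.22 without EF-1 library 9 to -0.05 without EF-1 library 11, Ldha from -0.17 without EF-1 library 9 to -0.02 without vehicle library 1, and Hk2 from -0.21 without EF-1 library 12 to -0.04 without EF-1 library 10. Without vehicle library 2 the values were -0.05 for Hk2, -0.17 for Gapdh and -0.13 for Ldha, and without vehicle library 4 they were -0.10, -0.13 and -0.07. EF-1 library 12 weighed heavily on this comparison. Without it, edgeR called 3207 genes in all in place of 3, yet still 0 of the 4. The log2 fold change was then 0.39 for Slc2a1, -0.21 for Hk2, -0.16 for Gapdh and -0.06 for Ldha, with edgeR adjusted p of 0.224, 0.104, 0.358 and 0.720. Without EF-1 library 10 it was 0.35, -0.04, -0.15 and -0.07 in the same order of genes, with edgeR adjusted p of 0.532, 0.883, 0.590 and 0.785. In that fit edgeR called 0 of the 4 and 1 gene in all.

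Both treatments were compared with the same 4 vehicle libraries, so these 2 comparisons are not independent. Side by side, the log2 fold change was 1.30 with NRG1 and 0.39 with EF-1 for Slc2a1, and 0.35 and -0.09 for Hk2. It was 0.28 and -0.15 for Gapdh, and 0.19 and -0.09 for Ldha. Whether the treatments differ was tested directly.

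EF-1 against NRG1 gave lower levels with EF-1 for Slc2a1, Hk2 and Gapdh. These are 3 of 4 genes called lower, where 21.0% of all tested genes were called lower. Slc2a1 was the 1 gene also past a log2 fold change of 0.58, which 13.2% of tested genes were. The log2 fold change was -0.91 for Slc2a1 (SE 0.22, 95% interval -1.39 to -0.44), which is 0.532 of the NRG1 level, at an edgeR adjusted p of 0.00534. It was -0.44 for Hk2 (SE 0.11, 95% interval -0.69 to -0.19) at an edgeR adjusted p of 0.00871, and -0.42 for Gapdh (SE 0.12, 95% interval -0.69 to -0.16) at 0.0149. Ldha gave -0.28 (SE 0.12, 95% interval -0.54 to -0.02) with an adjusted p of 0.0776 by edgeR. The CPM ranges of 3 of 4 genes lay wholly below those with NRG1, against 19.2% of tested genes. The median log2 fold change was -0.43 over the 4 genes and 0.02 over all tested genes. Without EF-1 library 12 the values were -0.91 for Slc2a1, -0.55 for Hk2, -0.43 for Gapdh and -0.26 for Ldha, with edgeR adjusted p of 0.00766, 0.000500, 0.0151 and 0.110. Without EF-1 library 10 they were -0.95, -0.38, -0.43 and -0.27 in the same order, with edgeR adjusted p of 0.0123, 0.0306, 0.0323 and 0.148. Before length scaling the call of Hk2 was lost (log2 fold change -0.45, edgeR adjusted p 0.0785). Ldha was called without EF-1 library 9 (-0.38, edgeR adjusted p 0.0292), by DESeq2 (-0.27, adjusted p 0.0381) and with 1 surrogate variable (-0.30, edgeR adjusted p 0.0345). Over all alternatives the adjusted p of this comparison ranged from 0.0292 to 0.175 for Ldha and from 0.000500 to 0.0785 for Hk2.

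**Figure D3:**
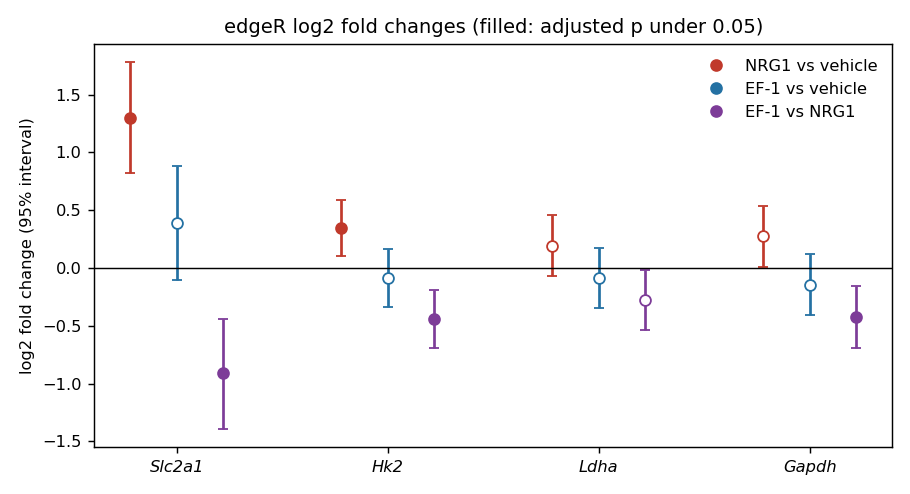
Log2 fold change of each gene (vertical axis) for NRG1 against vehicle, EF-1 against vehicle and EF-1 against NRG1, as edgeR estimates (points) with 95% intervals (bars), filled where the adjusted p was under 0.05. Slc2a1 has the largest estimates, 1.30 with NRG1 and -0.91 for EF-1 against NRG1.

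A ratio to Gapdh within a library does not depend on the scaling between libraries, but it moves with Gapdh itself. The Slc2a1 count was 0.690, 0.611, 1.16 and 0.588% of the Gapdh count in vehicle libraries 1 to 4. It was 1.73, 1.54, 1.94 and 0.901% in NRG1 libraries 5 to 8, and 0.835, 1.17, 1.37 and 1.05% in EF-1 libraries 9 to 12. NRG1 library 8 was below vehicle library 3, so the groups overlapped. The mean log2 ratio was 1.00 higher with NRG1 than with vehicle (exact two-sided permutation p 0.0571, adjusted over 9 ratio tests 0.257) and 0.57 higher with EF-1 (exact permutation p 0.0857, adjusted 0.257). For Hk2 the difference in log2 ratio to Gapdh was 0.07 with NRG1 and 0.05 with EF-1 (exact permutation p 0.571 and 0.686). For Ldha it was -0.09 and 0.07 (exact permutation p 0.114 and 0.486). For EF-1 against NRG1 the difference in log2 ratio to Gapdh was -0.43 for Slc2a1, -0.01 for Hk2 and 0.15 for Ldha (exact permutation p 0.200, 0.943 and 0.114). Single libraries moved these small differences. The Slc2a1 value for EF-1 against NRG1 was -0.67 without NRG1 library 8, and -0.30 without NRG1 library 7 or EF-1 library 9. The Ldha value was 0.09 for EF-1 against NRG1 and 0.01 for EF-1 against vehicle without EF-1 library 11, and -0.03 for NRG1 against vehicle without NRG1 library 6. The Hk2 value changed sign for NRG1 against vehicle without vehicle library 1 (-0.02) and for EF-1 against vehicle without vehicle library 1 (-0.03) or EF-1 library 12 (-0.04). For EF-1 against NRG1 it changed sign without EF-1 library 9 (0.06), EF-1 library 10 (0.05) or NRG1 library 8 (0.02). None of the 9 ratio tests passed after adjustment, and all groups overlapped. The smallest exact permutation p here is 0.0286, and most of the 9 tests would have to reach it for any to pass after adjustment, so the result says little about whether the ratios differ.

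Levels were compared between genes in TPM, Salmon's abundance per effective length scaled to 1000000 transcripts per library. Each gene count followed 1 transcript of the deposited quantification, with a residual of at most 0.147% between the 2 profiles over libraries, so that transcript's TPM was used. In the vehicle libraries the mean TPM was 2277 ± 220 for Gapdh, 1592 ± 175 for Ldha, 22.1 ± 1.25 for Hk2 and 5.03 ± 1.47 for Slc2a1 (SD, n = 4). In the NRG1 libraries it was 2885 ± 129, 1901 ± 127, 29.5 ± 2.33 and 12.8 ± 3.42 in the same order of genes. In the EF-1 libraries it was 1972 ± 541, 1430 ± 355, 19.9 ± 5.46 and 6.15 ± 0.604. By TPM the order was Gapdh, Ldha, Hk2 and Slc2a1 in each of the 12 libraries. Gapdh and Ldha were the closest neighbors, and within a library the TPM of Gapdh was 1.22 to 1.69 times that of Ldha. Their TPM ranges overlapped in the EF-1 group and not in the other groups. Within a library the TPM of Hk2 was 3.13 to 6.27 times that of Slc2a1 with vehicle, 1.84 to 4.15 times with NRG1 and 2.58 to 3.91 times with EF-1.

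Pooled over the 3 groups, the within-group SD of log2 CPM was largest for Slc2a1, at 0.352, against a median of 0.229 over all tested genes. It was 0.154 for Hk2, 0.155 for Gapdh and 0.146 for Ldha, all below that median. The EF-1 group alone had another order, with a coefficient of variation of CPM of 5.54% for Slc2a1, 19.9% for Hk2, 19.3% for Gapdh and 16.5% for Ldha. The gene whose log2 CPM over the 12 libraries was most like that of Gapdh was ENSRNOG00000005480 (Pearson's r 0.976, a description), and its log2 fold change with NRG1 was 0.38 (edgeR adjusted p 0.0200). For Hk2 it was ENSRNOG00000033790 (Pearson's r 0.969), with a log2 fold change of 0.44 (edgeR adjusted p 0.0146). For Slc2a1 and Ldha the highest Pearson's r was 0.956 and 0.949, with genes whose log2 fold change with NRG1 was 0.89 and 0.24 (edgeR adjusted p 0.000390 and 0.171). Other genes also had a high Pearson's r, most often for Hk2 and least often for Ldha, so the closest gene is not a singular match. These libraries share their groups and depths, and no p is given for these coefficients. The files do not pair identifiers with symbols, so other genes are named by identifier. The other glycolysis genes and the markers of atrial myocytes and of other cell types were not analysed here, so the labelled cell type was not checked against markers.

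The promoters of Slc2a1 and Hk2 are shown because these 2 genes were called higher with NRG1, Hk2 with the limits given above. The 250 bases before the transcript start come from RefSeq (build GRCr8), 5′ to 3′ on the strand of the gene, and all 4 genes matched a promoter by symbol. This build is not the one the authors used for quantification (Rnor_6.0). The Slc2a1 window lies on the plus strand at chr5:138002272-138002521 and the Hk2 window on the minus strand at chr4:116841276-116841525. Both strands were searched for ACGTG, the core of the hypoxia response element, and for CACGTG, an E-box, which contains ACGTG on both strands. Capitals mark a match.
Slc2a1: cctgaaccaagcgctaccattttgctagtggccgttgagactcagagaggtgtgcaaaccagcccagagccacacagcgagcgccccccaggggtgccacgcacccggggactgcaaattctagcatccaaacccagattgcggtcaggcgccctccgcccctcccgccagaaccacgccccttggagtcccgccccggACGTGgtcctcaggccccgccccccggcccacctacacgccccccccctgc
Hk2: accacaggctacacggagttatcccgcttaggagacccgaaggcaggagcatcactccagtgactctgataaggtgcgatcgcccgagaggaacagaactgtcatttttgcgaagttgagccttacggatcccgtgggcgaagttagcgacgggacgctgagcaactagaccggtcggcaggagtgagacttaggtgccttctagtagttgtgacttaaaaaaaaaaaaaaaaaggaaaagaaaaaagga
The Slc2a1 window holds 1 ACGTG, 51 bases before the start, and the Hk2 window holds neither motif. The Gapdh window holds 1 ACGTG, on the other strand, 121 bases before the start. This window (chr4:159652468-159652717, minus strand) lies inside the annotated gene (chr4:159648592-159653436), so the start used for Gapdh is an internal one. The Ldha window holds ACGTG in 3 matches, of which the ones at 87 and 86 bases before the start form 1 CACGTG, and the last lies on the other strand at 73 bases. Of 33469 rat promoter windows of this length, 16.6% hold ACGTG and 5.59% hold CACGTG on either strand. A match is a description of letters and not a site of binding.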

How the data were processed

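RNA of 12 iAM cultures was sequenced by the authors and quantified with Salmon, with GC correction, on transcripts of Rnor_6.0. The authors deposited estimated counts per gene, scaled by transcript length and library total and rounded to whole numbers. They also deposited, per library, estimated counts (reads) of 31196 transcripts. TPM values were deposited by the authors per transcript, with the effective lengths behind them. Effective length was used as deposited.

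From these files, edgeR 4.0.16 (R 4.3.3) tested the gene counts in 1 fit over the 3 groups, with TMM normalization, a filter with a minimum count of 10 and a robust quasi-likelihood fit. P-values were adjusted by Benjamini-Hochberg over 10997 genes, with a threshold of 0.05, and 0.58 as the log2 fold change counted separately. CPM used each library's total. Estimated totals of 12216228 to 27467198 per library gave the 4 genes 158 to 51349 counts each. Ratios and single genes were tested by exact two-sided permutation. Libraries of the same group were compared pairwise, and no such pair was a duplicate. The code was tested on simulated data for EF-1 against vehicle. There it recovered 36.0% of genes changed 1.5-fold and 93.0% of those changed 3-fold, so small changes can be missed.

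Alternatives were library size only, DESeq2 1.42.0, limma-voom (limma 3.58.1), no filter, only the groups compared, 1 surrogate variable (sva 3.50.0) and each library left out. After the data were seen, transcript reads were added, without and with an effective-length offset. For these, transcripts were matched to genes by their profile over libraries. The sequencing run that the study used as a covariate is not in the labels and was not used. Members and lists were chosen with earlier results of these data known. The rule for named genes was to name all 4 members and, for likeness, the gene with the highest Pearson's r per member, printing at most 2 that rose. Pathway and marker lists set by symbol were not analysed here, because 0 of 47357 names in the RefSeq table (GRCr8) carry an Ensembl identifier.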

Additional observations from a re-analysis of the deposited data

Results flagged for a closer look

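Hk2 in NRG1 library 8 was at 185 CPM, while the other 3 NRG1 libraries lay between 159 and 161 CPM. The gap to the nearest library was 0.912 of the range of the group, which is beyond Dixon's limit for 4 libraries. Of 48 groups of values examined, 1 held a library set apart in this way, and chance sets apart about 1 in 20 groups. Without this library the log2 fold change of Hk2 for NRG1 against vehicle was 0.31, with an edgeR adjusted p of 0.0876 in place of 0.0354.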

How the results depend on the processing

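Of 240 log2 fold changes of the 4 genes under the alternatives, 228 kept their side of the threshold, 6 lost a call, 6 gained one and 0 reversed a call. Among the 228, 1 changed sign: Hk2 for EF-1 against vehicle, to 0.03 (edgeR adjusted p 0.910), with 1 surrogate variable. Slc2a1 was called for NRG1 against vehicle in each of them (adjusted p 2.19e-07 to 0.00330 in those planned). For NRG1 against vehicle, 1 to 2 of the 4 genes were called with a library left out, in place of 2, and 1 with transcript reads before length scaling, an alternative chosen after seeing the data. The cause was not tested. Over all alternatives 1 to 3 of the 4 were called for NRG1 against vehicle (2699 to 5687 of all genes), 0 for EF-1 against vehicle (0 to 3207) and 2 to 4 for EF-1 against NRG1 (3652 to 6064). The ratio tests could hardly pass at this number of libraries, and none of 81 ratio values did. With a library left out the Hk2 ratio difference was -0.02 to 0.14 for NRG1 against vehicle, -0.04 to 0.13 for EF-1 against vehicle and -0.10 to 0.06 for EF-1 against NRG1. Over all genes, 3439 calls for NRG1 against vehicle became 5687 with 1 surrogate variable. For EF-1 against vehicle, 3 calls became 5 with library size only, 210 with DESeq2, 0 with limma-voom, 1 with only the 2 groups, 32 with 1 surrogate variable, 0 (of transcripts) with transcript reads and 0 to 3207 with a library left out (3207 without EF-1 library 12). No paired analysis was run, because no library number occurs in more than 1 group and no label names a pair. Of the 4 genes, Slc2a1 had the fewest counts, at 158 to 819 per library. Its observed spread was well above counting error in the vehicle and NRG1 groups, though not in the EF-1 group.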
